A study of Mus musculus with 9 samples.

Results

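Voltage-gated sodium and calcium channel genes were taken as the protein-coding genes whose mouse symbol begins with Scn and ends in a or b after its number (sodium alpha and beta subunits), or begins with Cacna, Cacnb or Cacng (calcium alpha1, alpha2-delta, beta and gamma subunits). The symbols came from GENCODE M21. The rule found 40 genes, 14 Scn and 26 Cacn, among the 52550 genes counted. RNA was sequenced from the spinal cord around the lesion on day 7 in adult female C57BL/6N mice. Sham mice had the vertebral lamina removed and no injury (3 mice). SCI mice had a contusion at the T10 level and the DMSO vehicle (3 mice), and SCI+FIPI mice had the same contusion and daily intraperitoneal FIPI, an inhibitor of phospholipase D (3 mice). A bulk segment holds neurons, glia, vessels and the cells of the scar together, so fewer cells of a type and less RNA per cell cannot be told apart.

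A voltage-gated sodium channel opens when the membrane depolarizes and carries the rising phase of the action potential. Its alpha subunit forms the pore, and its beta subunits tune the gating and anchor the channel at the axon initial segment and node of Ranvier. A voltage-gated calcium channel turns depolarization into calcium entry, which releases transmitter at the nerve terminal (P/Q-, N- and R-type), couples activity to gene expression and plateau firing in the cell body (L-type), or opens near rest and drives burst firing (T-type). Its beta and alpha2-delta subunits carry the pore to the membrane, and most gamma proteins in brain and cord act on AMPA receptors.

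Counts per mouse lay between 20806000 and 24582377, and the 40 genes held 0.317 to 0.339% of them in Sham, 0.125 to 0.152% in SCI and 0.176 to 0.192% in SCI+FIPI. Levels within a gene are given as CPM, the gene's part of the TMM-scaled library total. Levels between genes are given as FPKM, the part of the library total divided by the length of the exons. Both are parts of a total and not amounts of RNA in the cord, and a percent of the Sham level is a percent of such a part. A gene counted as called when its log2 fold change was 0.5 or more in size and its Benjamini-Hochberg adjusted p-value, from the quasi-likelihood test of edgeR over 18699 genes, was below 0.05. Of the 40 genes 37 passed the filter on low counts, and Cacng1, Scn10a and Scn11a did not. In Sham 30 of the 40 genes reached a mean of 1 FPKM.

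The sodium alpha genes are close copies of one another, which limits how reads can be divided among them. Over the whole transcript, 8.53% of the 50-base stretches of Scn3a, 7.87% of those of Scn2a, 5.48% of those of Scn1a and 5.36% of those of Scn9a also occurred in another gene, so part of their counts may have been shared among them. In Scn8a this was 0.05% and in Scn7a 0.00%.

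These genes sit in clusters. Scn3a (chr2:65457118-65567627, minus strand), Scn2a (chr2:65620771-65767447, plus), Scn1a (chr2:66270778-66440840, minus), Scn9a (chr2:66480080-66634962, minus) and Scn7a (chr2:66673425-66784914, minus) follow each other on GRCm38 chromosome 2, while Scn8a lies alone at chr15:100869858-101045938 on the plus strand. Scn2b (chr9:45117782-45130070, plus) and Scn4b (chr9:45138395-45154152, plus) are neighbours, and so are Cacng7, Cacng8 and Cacng6 on chromosome 7.

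After injury most channel genes were lower. SCI was called lower than Sham in 26 of the 37 genes tested, 10 sodium and 16 calcium, and higher in 1, where 22.5% of all genes tested were called lower and 24.4% higher. The median log2 fold change of the 37 genes was -1.01, against 0 over all genes tested. In 29 of the 37 genes every SCI mouse lay below every Sham mouse, as in 35.0% of all genes. At a fold change of at least 2, 18 channel genes were called lower, as were 11.8% of all genes. Summed over the 40 genes, CPM was 3330, 3099 and 3405 in the 3 Sham mice and 1541, 1404 and 1266 in the 3 SCI mice.

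**Figure D1:**
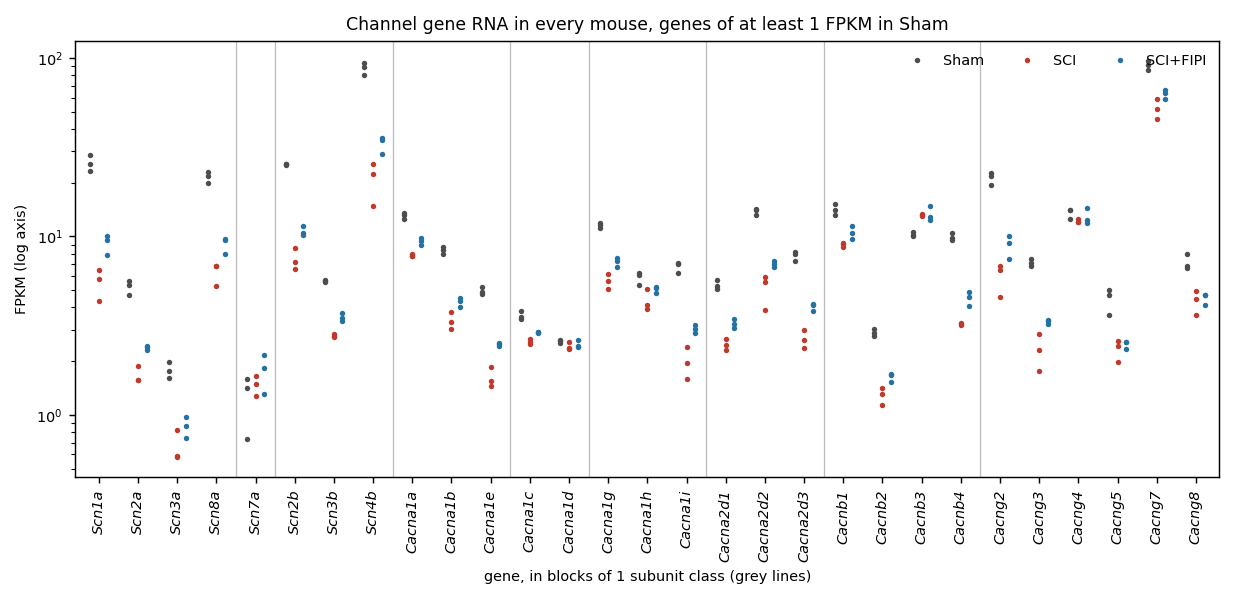
FPKM (log axis) of 29 channel genes with a mean of at least 1 FPKM in Sham, with 1 point for each mouse, in blocks of 1 subunit class. Cacng7 and Scn4b stood highest of the genes plotted in all 3 groups, and Cacnb3 was the gene in this plot with every SCI mouse (red) above every Sham mouse (dark).

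The 4 alpha genes of central neurons all fell. Scn1a, the sodium channel of fast-firing inhibitory neurons and of motor neurons, stood at 282, 252 and 322 CPM in Sham and at 73.2, 65.7 and 49.0 CPM in SCI. The groups were far apart, and SCI kept 21.96% of the Sham level, a log2 fold change of -2.19 (SE 0.167, adjusted p = 4.89e-06). It was the most negative fold change among the 37 genes. Scn8a, the main channel of nodes of Ranvier, went from 344, 309 and 365 CPM to 109, 109 and 83.7 CPM (log2 fold change -1.76, SE 0.114, adjusted p = 8.92e-08). No SCI mouse came near a Sham mouse. Scn2a, found in unmyelinated axons and immature initial segments, went from 59.6, 70.2 and 68.7 CPM to 24.2, 20.3 and 20.1 CPM (log2 fold change -1.62, SE 0.0857, adjusted p = 8.96e-10). Scn3a, mostly a channel of the embryo, was low, at 19.9, 24.1 and 21.9 CPM in Sham and 10.4, 7.32 and 7.38 CPM in SCI (log2 fold change -1.40, SE 0.142, adjusted p = 6.79e-07).

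The other alpha genes were scarce. Scn9a, best known from pain-sensing ganglion neurons, was at 10.83, 10.15 and 11.66 CPM in Sham and 4.99, 5.42 and 4.30 CPM in SCI, and was called lower (log2 fold change -1.15, SE 0.144, adjusted p = 5.32e-06). Scn10a and Scn11a, the tetrodotoxin-resistant channels of the dorsal root ganglion, had at most 4 and 8 counts in any mouse. Of 10 ganglion markers, Prdm12 and Mrgprd were at or close to 0 (mean CPM in Sham 0.0459 and 0.0139). The summed list ranged from 85.9 to 118 CPM in Sham, 50.1 to 74 CPM in SCI and 73.4 to 97 CPM in SCI+FIPI. Most of that sum came from Prph and Calca, with means of 57.96 and 30.88 CPM in Sham. Of the 7 ganglion markers tested, Pou4f1, Calca and Isl1 were called lower after SCI (log2 fold change -1.79, -1.73 and -1.04) and Avil higher (0.98). Over all genes tested, 22.5% were called lower after SCI and 24.4% higher. With FIPI 1 ganglion marker was called higher (Pou4f1, 0.86), as were 2.36% of all genes. The part of ganglion cells in the Scn9a counts was not tested. Scn4a, the skeletal muscle channel, had 1, 10 and 2 counts in Sham and 8, 6 and 12 in SCI, with overlapping groups and no call (log2 fold change 0.91). Without Sham mouse 2, the one with 10 counts, Scn4a was called higher in SCI (2.35, adjusted p = 0.0186) and in SCI+FIPI (2.27, adjusted p = 0.0264) than in Sham.

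Scn7a, which encodes Nax, an atypical member that responds to extracellular sodium, was not called lower as its neighbours on chromosome 2 were. It was at 5.37, 11.45 and 10.36 CPM in Sham, 10.99, 9.55 and 12.28 CPM in SCI and 9.57, 13.48 and 15.90 CPM in SCI+FIPI. The 3 groups overlapped, and none of the 3 comparisons was called. The log2 fold change was 0.27 (SE 0.281, adjusted p = 0.433) between SCI and Sham, and 0.00 to 0.46 when 1 mouse was left out. Between SCI+FIPI and Sham it was 0.51 (SE 0.279, adjusted p = 0.147). Scn7a was called higher there with no filter (0.53, adjusted p = 0.0434), with the replicate number as a block (0.53, adjusted p = 0.0396), with offsets for GC content and length (0.76, adjusted p = 0.0473) and with block and offsets (0.77, adjusted p = 0.0101), and block and offsets together also gave a call between SCI and Sham (0.58, adjusted p = 0.034). Sham mouse 1 stood lowest of the 9 mice. Against the falling sum of the class, Scn7a took a mean of 2.2% of the summed FPKM of the 10 alpha genes in Sham and 9.2% in SCI, without overlap between the mice.

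The beta genes Scn4b, Scn2b and Scn3b fell by unequal amounts. Scn4b, which supports resurgent current and fast firing, went from 442, 391 and 468 CPM to 128, 113 and 74.9 CPM (log2 fold change -2.04, SE 0.197, adjusted p = 3.69e-05), and its neighbour Scn2b, a disulfide-linked partner of alpha subunits, from 116, 116 and 119 CPM to 40.7, 34.0 and 30.9 CPM (log2 fold change -1.73, SE 0.0862, adjusted p = 6.76e-10). Both genes were clear of the Sham range in every SCI mouse. Scn3b went from 30.2, 30.6 and 30.8 CPM to 15.1, 15.75 and 15.2 CPM (log2 fold change -0.99, SE 0.0758, adjusted p = 2.96e-08).

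Among the calcium pores, the presynaptic and R-type genes fell. Cacna1a, the P/Q-type pore of the neuromuscular junction and most central synapses, moved least, from 153, 139 and 151 CPM to 91.8, 90.1 and 89.7 CPM (log2 fold change -0.71, SE 0.0576, adjusted p = 5.67e-08). Cacna1b, the N-type pore and target of ziconotide, went from 78.95, 84.52 and 83.53 CPM to 38.0, 33.4 and 30.6 CPM (log2 fold change -1.28, SE 0.0775, adjusted p = 2.97e-09). Cacna1e, the R-type pore, went from 123, 128.5 and 120.1 CPM to 47.3, 37.4 and 39.45 CPM (log2 fold change -1.58, SE 0.0768, adjusted p = 4.09e-10). In each of the 3 genes every SCI mouse lay below every Sham mouse.

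The L-type genes gave no call. Cacna1d, which carries persistent inward current in motor neurons, was nearly flat at 32.9, 32.1 and 32.1 CPM in Sham, 29.98, 32.71 and 30.21 CPM in SCI and 33.35, 30.64 and 29.99 CPM in SCI+FIPI. The ranges overlapped, with a log2 fold change of -0.06 (SE 0.0704, adjusted p = 0.443) between SCI and Sham that turned to 0.10 with offsets for GC content and length. Cacna1c, expressed in neurons, glia and vascular smooth muscle, went from 74.97, 71.61 and 81.45 CPM to 54.72, 57.35 and 53.58 CPM, with no overlap and a log2 fold change of -0.46 (SE 0.0611, adjusted p = 9.23e-06) just inside the fold limit. Leaving out Sham mouse 2 took it to -0.50 and upper-quartile factors to -0.53, past the limit. Offsets for GC content and length took it the other way, to -0.20 (adjusted p = 0.00507). Cacna1f of the retina and Cacna1s of skeletal muscle had at most 19 and 14 counts in any mouse, and 19.98% of the exonic bases of Cacna1s lie under exons of a gene on the opposite strand. Against the other pores the L-type genes gained room, from 11.1 ± 0.3% (SD, n = 3) of the summed alpha1 FPKM in Sham to 17.0 ± 1.5% (SD, n = 3) in SCI, in every mouse.

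The 3 T-type genes fell by different amounts. Cacna1i went from 69.5, 60.1 and 69.3 CPM to 23.86, 19.64 and 15.82 CPM (log2 fold change -1.74, SE 0.121, adjusted p = 7.61e-08), and Cacna1g from 120.4, 115 and 114 CPM to 63.3, 52.1 and 57.9 CPM (log2 fold change -1.01, SE 0.072, adjusted p = 1.44e-08). Cacna1h, the T-type pore also found in sensory neurons, went from 58.8, 59.7 and 52.4 CPM to 49.9, 38.9 and 40.6 CPM without a call (log2 fold change -0.40, SE 0.0883, adjusted p = 0.00104). Every SCI mouse was below every Sham mouse in all 3 genes.

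The beta subunits bind a short stretch of the loop between domains I and II of the pore. The 54 coding bases that encode its core are shown for a P/Q-, an N- and an L-type gene, with capitals where they differ from Cacna1a (GENCODE M21, GRCm38).
Cacna1a: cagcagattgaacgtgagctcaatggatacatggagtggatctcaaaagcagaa
Cacna1b: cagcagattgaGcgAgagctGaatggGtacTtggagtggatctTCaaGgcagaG
Cacna1d: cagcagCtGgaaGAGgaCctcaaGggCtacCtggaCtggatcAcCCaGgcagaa
Cacna1b differed at 9 bases and Cacna1d at 14. The stretch was found in 7 of the 10 alpha1 genes and not in the 3 T-type genes, whose pores are known to work without a beta subunit.

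The genes for the beta subunits themselves split. Cacnb4, the main beta of cerebellar and many other neurons, went from 85.32, 91.95 and 88.09 CPM in Sham to 29.69, 29.36 and 28.77 CPM in SCI (log2 fold change -1.60, SE 0.0699, adjusted p = 1.68e-10). Exons of genes on the opposite strand cover 15.99% of its exonic bases and 7.32% of those of Cacnb2, and whether the counting used the strand was not given in the sources used here. Cacnb2 (log2 fold change -1.14, SE 0.0911, adjusted p = 4.53e-08) and Cacnb1 (log2 fold change -0.63, SE 0.0731, adjusted p = 2.41e-06) also fell, and SCI and Sham did not overlap in either. Cacnb3 went the other way, from 42.1, 39.6 and 40.8 CPM in Sham to 53.97, 53.88 and 53.03 CPM in SCI, every SCI mouse above every Sham mouse. Its log2 fold change of 0.39 (SE 0.0708, adjusted p = 0.000176) stayed under the fold limit.

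The make-up of the beta class was apart between Sham and SCI in every mouse. Cacnb3 made up 27.6, 27.6 and 27.3% of the summed beta FPKM in the 3 Sham mice, 49.2, 49.7 and 49.5% in SCI and 44.4, 40.8 and 48.2% in SCI+FIPI. Cacnb4 made up 26.7 ± 1.8% in Sham, 12.1 ± 0.056% in SCI and 15.1 ± 1.6% in SCI+FIPI (SD, n = 3). The mice of the 3 groups were apart for both genes, and the exact two-sided permutation test gave p = 0.1 for SCI against Sham and for SCI+FIPI against SCI, the smallest p that 3 mice against 3 allow. Over 29 such shares, 23 were apart between SCI and Sham and 7 between SCI+FIPI and SCI, each with p = 0.1 in the exact permutation test at the lowest. The shares of a class sum to 100, so a lower share of 1 gene raises the others. By mean FPKM, Cacnb3 ranked at place 13 of the 40 genes in Sham and at place 4 in SCI and in SCI+FIPI, and Scn1a at places 4, 12 and 9.

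**Figure D2:**
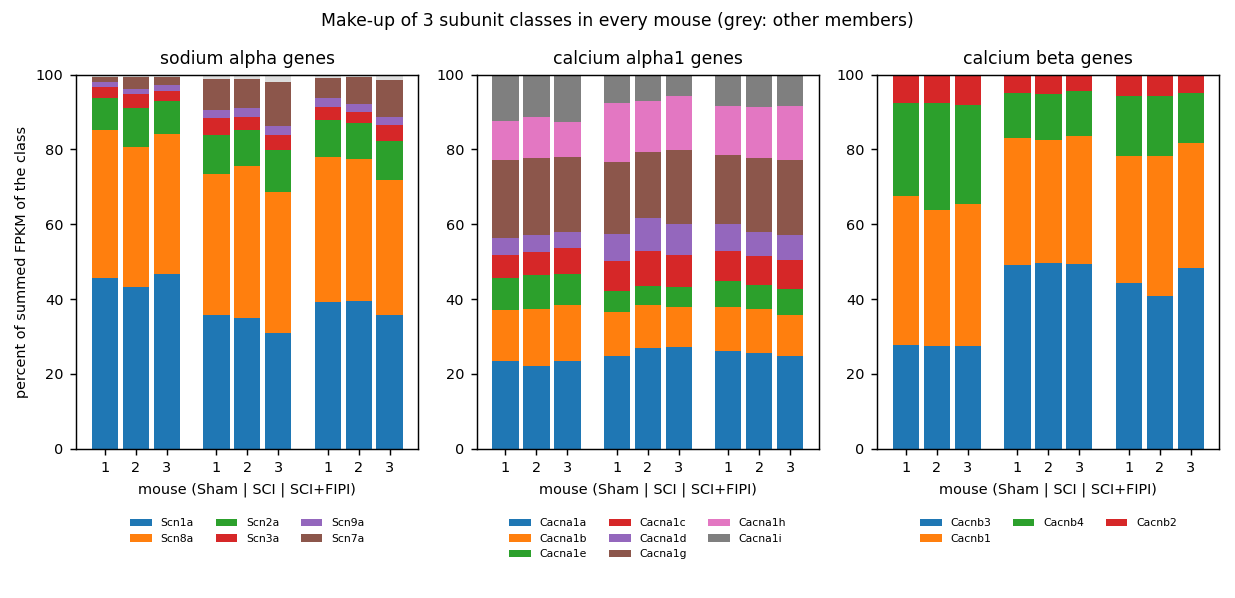
Percent of the summed FPKM of a subunit class taken by each of its genes, with 1 bar for each mouse. The Cacnb3 segment of the calcium beta genes rises from 27.5% on average in Sham to 49.5% in SCI and 44.4% in SCI+FIPI, and the Scn1a segment of the sodium alpha genes goes from 45.2 to 33.9 and 38.0%.

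Of the 4 alpha2-delta genes 3 fell. Cacna2d1 and Cacna2d2, the binding proteins of gabapentin and pregabalin, had log2 fold changes of -1.08 (SE 0.0723, adjusted p = 7.45e-09) and -1.41 (SE 0.128, adjusted p = 3.78e-06). Cacna2d2 was at 112, 103 and 112 CPM in Sham and 47.4, 44.6 and 31.2 CPM in SCI, with SCI mouse 3 well under the other two. Cacna2d3 went from 70.80, 62.15 and 69.74 CPM to 26.25, 23.28 and 21.01 CPM (log2 fold change -1.52, SE 0.0845, adjusted p = 1.32e-09). Cacna2d4, a retinal form, was low and overlapped between groups (3.59, 2.94 and 4.26 CPM in Sham and 3.98, 3.10 and 3.25 CPM in SCI).

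The gamma genes covered the widest range. Cacng2, which encodes stargazin and carries AMPA receptors to the synapse, went from 119.5, 105 and 126 CPM to 36.3, 38.4 and 25.6 CPM (log2 fold change -1.81, SE 0.168, adjusted p = 1.71e-05), and the related Cacng3 from 19.8, 18.6 and 20.8 CPM to 7.97, 6.49 and 4.98 CPM (log2 fold change -1.61, SE 0.137, adjusted p = 9.02e-08). Cacng7, Cacng8 and Cacng5 fell less, with log2 fold changes of -0.79, -0.70 and -0.90 (adjusted p = 2.41e-06, 0.000141 and 2.78e-05). Cacng4 held 50.4, 49.4 and 44.9 CPM in Sham and 45.2, 43.6 and 43.5 CPM in SCI, overlapping, with no call (log2 fold change -0.13, SE 0.0748, adjusted p = 0.144).

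The gene called higher after SCI was Cacng6, known from skeletal muscle, and it rested on few counts. It had 2, 5 and 0 counts in Sham, 9, 16 and 9 in SCI and 15, 19 and 9 in SCI+FIPI. SCI and SCI+FIPI overlapped, and neither overlapped with Sham. Between SCI and Sham the log2 fold change was 2.14 (SE 0.692, adjusted p = 0.0134). The call of Cacng6 was lost without Sham mouse 3 (1.55, adjusted p = 0.0508) or without SCI mouse 2 (1.83, adjusted p = 0.0598). Its muscle relative Cacng1 had at most 8 counts in any mouse. Of 12 skeletal muscle markers 1 was called lower and 0 higher after SCI, where 22.5% of all genes were called lower and 24.4% higher. The summed list ran from 99.8 to 134 CPM in Sham, 37.2 to 77.8 CPM in SCI and 62.5 to 81.5 CPM in SCI+FIPI. The gene called lower was Pvalb, which inhibitory neurons express too, with a mean of 86.6 CPM in Sham, 23.7 CPM in SCI and 37.5 CPM in SCI+FIPI (log2 fold change -1.87 after SCI). The other 11 muscle markers summed to 13.2 to 53.7 CPM in Sham, 16.7 to 53.8 CPM in SCI and 27.1 to 45 CPM in SCI+FIPI. Tnnc2 was close to 0 in all 3 groups (at most 0.071 CPM on average). The part of muscle in the counts of Cacng6 was not tested.

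With FIPI, channel genes stood higher than in SCI, by less than they had fallen. SCI+FIPI was called higher than SCI in 6 of the 37 genes and lower in 0, where 2.36% of all genes tested were called higher and 0.695% lower. None of the 37 genes was lower at an unadjusted p under 0.05, and DESeq2 and limma-voom also called 0 lower. Scn11a, which was not tested, had 8, 4 and 5 counts in SCI and 1, 1 and 1 in SCI+FIPI. The largest rise of the 37 was in Cacna1s, without a call (log2 fold change 1.63, adjusted p = 0.122). It rested on 2, 4 and 4 counts in SCI and 10, 12 and 9 in SCI+FIPI. The median log2 fold change of the 37 genes was 0.35, against 0 over all genes, and 35 of the 37 had a positive value. Every SCI+FIPI mouse lay above every SCI mouse in 23 of the 37 genes, as in 15.7% of all genes. With no limit on the fold change, 16 channel genes were higher at an adjusted p under 0.05, as were 6.04% of all genes, and at a fold change of at least 2 there were 0, against 0.219% of all genes. This comparison and that of SCI with Sham share the 3 SCI mice.

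Of the sodium genes, Scn1a and Scn8a were called. Scn1a rose from 73.2, 65.7 and 49.0 CPM in SCI to 107, 112 and 87.3 CPM in SCI+FIPI (log2 fold change 0.70, SE 0.164, adjusted p = 0.0359), and Scn8a from 109, 109 and 83.7 CPM to 149.9, 153 and 125 CPM (log2 fold change 0.51, SE 0.112, adjusted p = 0.0196). Neither gene had overlapping groups, and mouse 3 stood lowest in SCI and in SCI+FIPI for both. The call of Scn1a was lost without SCI mouse 2, SCI+FIPI mouse 1 or SCI+FIPI mouse 2, where the log2 fold change was 0.74, 0.66 and 0.63 (adjusted p = 0.092, 0.0907 and 0.133). The call of Scn8a was lost without SCI mouse 3, SCI+FIPI mouse 1 or SCI+FIPI mouse 2 (0.39, 0.47 and 0.45) and with offsets for GC content and length, alone or with the replicate block (0.48 in both).

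Among the calcium genes 4 were called, and 2 of these calls did not depend on any 1 mouse. Cacna1e rose from 47.3, 37.4 and 39.45 CPM to 63.7, 61.1 and 62.2 CPM (log2 fold change 0.59, SE 0.0769, adjusted p = 0.00166), and Cacna2d3 from 26.25, 23.28 and 21.01 CPM to 33.35, 36.37 and 35.90 CPM (log2 fold change 0.58, SE 0.0854, adjusted p = 0.00247). Both kept their call in each of 16 refits, with log2 fold changes from 0.52 to 0.70 and from 0.51 to 0.67. Cacna1i rose from 23.86, 19.64 and 15.82 CPM to 28.43, 31.24 and 29.65 CPM (log2 fold change 0.59, SE 0.122, adjusted p = 0.0137), and lost its call without SCI mouse 2, SCI mouse 3 or SCI+FIPI mouse 2 (0.58, 0.45 and 0.55). Cacng3 rose from 7.97, 6.49 and 4.98 CPM to 9.03, 9.37 and 9.27 CPM (log2 fold change 0.51, SE 0.141, adjusted p = 0.036), the groups apart, and lost its call without any 1 of the 3 SCI+FIPI mice or without SCI mouse 2 or 3 (0.35 to 0.52). Its call was also lost with the replicate block and offsets together (0.52, adjusted p = 0.0507) and with only the 2 groups compared (0.51, adjusted p = 0.0673).

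**Figure D3:**
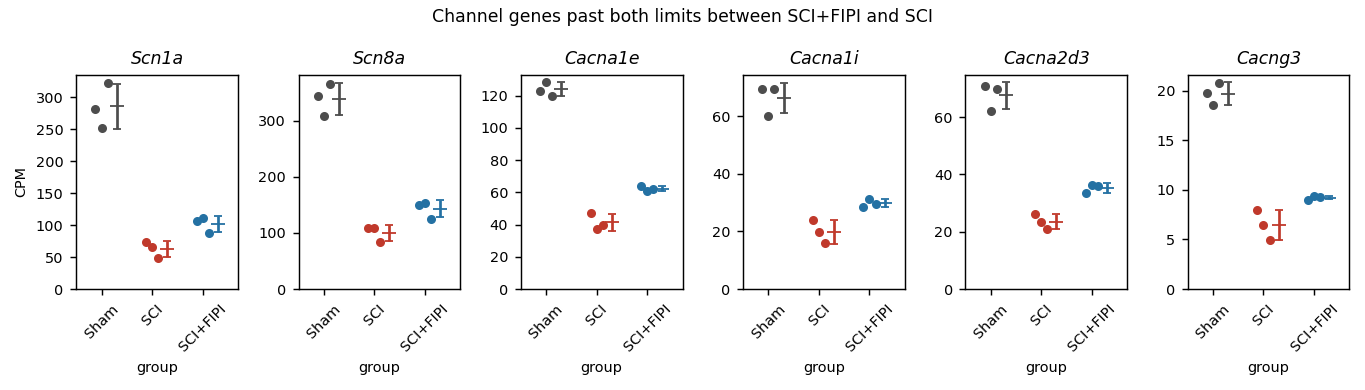
CPM of the 6 channel genes called higher in SCI+FIPI than in SCI, with 1 point for each mouse and the mean with its SD beside the points (n = 3). In each panel the SCI+FIPI mice lie above the SCI mice and far under the Sham mice, as for Cacna1e with means of 41.4 CPM in SCI, 62.4 CPM in SCI+FIPI and 123.9 CPM in Sham.

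Several genes stopped just short of the limits. Scn2b had a log2 fold change of 0.50 (SE 0.0866, adjusted p = 0.00565) whose unrounded value fell under 0.5, and Scn2a one of 0.49 (SE 0.0869, adjusted p = 0.0059). Scn4b and Cacng2 had larger values with wider errors, 0.65 (SE 0.192, adjusted p = 0.0796) and 0.55 (SE 0.169, adjusted p = 0.0816). In all 4 genes every SCI+FIPI mouse stood above every SCI mouse. Scn2b was past both limits in 9 of the 16 refits and Scn2a in 3. DESeq2 and limma-voom called both Scn4b (0.65 and 0.68, adjusted p = 0.0135 and 0.0204) and Cacng2 (0.55 and 0.56, adjusted p = 0.00237 and 0.0334). For Scn4b, SCI mouse 3 stood at 74.9 CPM against 128 and 113 CPM in the other SCI mice. Cacnb4 (0.46, adjusted p = 0.00303) and Cacna2d1 (0.36, adjusted p = 0.00978) passed the limit on p only. Without SCI+FIPI mouse 3, Cacnb4 was past both limits (0.53, adjusted p = 0.00275).

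Cacna1a, Cacna1b, Cacna1g, Cacnb2 and Scn3b, also past the limit on p alone, had log2 fold changes from 0.24 to 0.33. Cacna1c, Cacna1h, Cacna2d2, Cacnb1, Cacng7, Scn3a, Scn7a and Scn9a lay between 0.15 and 0.46 and missed it. Cacna2d2 and Scn3a were called higher without SCI mouse 1 (0.55 and 0.54, adjusted p = 0.0178 and 0.0159). Scn9a was called higher without SCI+FIPI mouse 3 (0.58, adjusted p = 0.0413).

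A few genes had values close to 0 between SCI+FIPI and SCI. The log2 fold change was 0.02 for Cacna1d (adjusted p = 0.918), 0.00 for Cacna2d4 (adjusted p = 0.997), 0.06 for Cacng4 (adjusted p = 0.665) and -0.01 for Cacnb3 (adjusted p = 0.971). Cacnb3 held 51.2, 49.55 and 59.4 CPM in SCI+FIPI, with mouse 3 above and the other mice below the SCI range. Cacng5 and Cacng8 had fallen after injury and stood at 0.06 and 0.03 (adjusted p = 0.827 and 0.901) with overlapping groups.

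**Figure D4:**
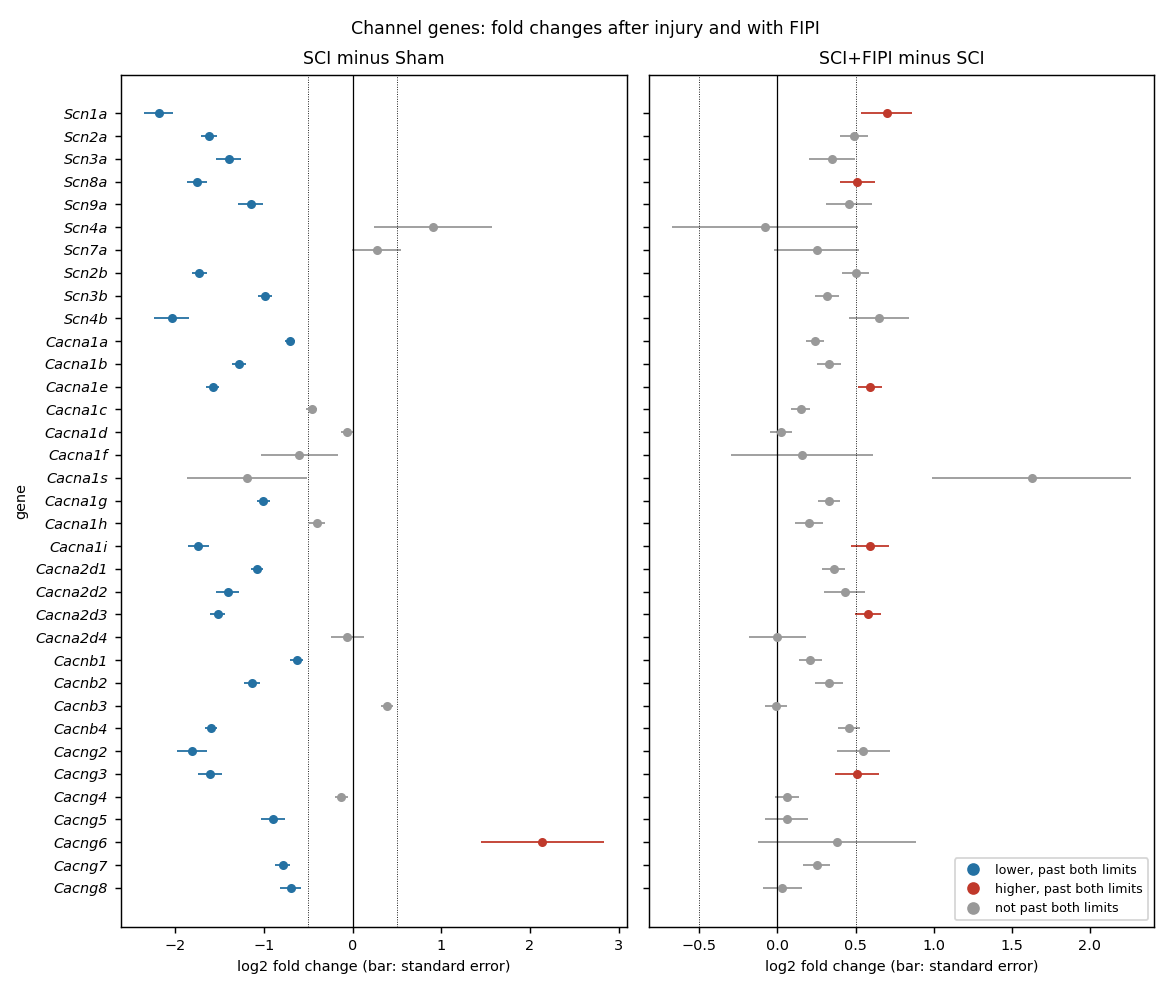
Log2 fold change (bars, standard error of the fit) of 35 of the 37 channel genes tested, for SCI minus Sham on the left and SCI+FIPI minus SCI on the right, on axes of different range. Blue and red mark genes past both limits, red being Cacng6 on the left and 6 genes on the right, and dotted lines mark a log2 fold change of 0.5 in either direction.

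Against Sham the FIPI mice stayed low. SCI+FIPI was called lower than Sham in 22 of the 37 genes and higher in 1 (Cacng6), where 17.0% and 21.2% of all genes were called, with a median log2 fold change of -0.68. In 27 of the 37 genes every SCI+FIPI mouse lay below every Sham mouse, as in 32.9% of all genes, and 10 were called lower at a fold change of at least 2, as were 5.35% of all genes. Scn1a kept 21.96% of its Sham level in SCI and 35.7% in SCI+FIPI, Scn4b 24.3 and 38.1%, Scn8a 29.6 and 42.1%, and Cacna1e 33.4 and 50.3%. Cacna1a and Cacnb1 reached 72.4 and 74.6% of Sham in SCI+FIPI and were no longer called lower, with log2 fold changes of -0.47 and -0.42 (adjusted p = 6.54e-06 and 0.000152). Cacna1a was called lower with upper-quartile factors or without Sham mouse 2 (-0.51 in both), and Cacnb1 with offsets for GC content and length (-0.55, adjusted p = 5.72e-06). Other genes lost their lower call. With the same offsets these were Cacna2d1, Cacnb2 and Scn9a (-0.40, -0.45 and -0.40). Cacng7 lost it without Sham mouse 3 or without SCI+FIPI mouse 3 (-0.48 in both). The values side by side share the Sham mice.

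Mice of a group differed across many channel genes at once. SCI mouse 1 was the highest of its group in 23 of the 37 genes and SCI mouse 3 the lowest in 21. In SCI+FIPI mouse 2 was the highest in 23 and mouse 3 the lowest in 19. The order of the mice over all genes was not worked out, so this order cannot be called particular to channel genes. Summed CPM of the 40 genes was 1541 in SCI mouse 1, 1266 in SCI mouse 3, and 1835, 1913 and 1747 in the 3 SCI+FIPI mice, so the lowest SCI+FIPI mouse was above the highest SCI mouse. Without SCI mouse 1 the number of channel genes called higher with FIPI was 12, against 6 with all mice. It was 3 without SCI mouse 2, SCI mouse 3, SCI+FIPI mouse 1 or SCI+FIPI mouse 2, and 9 without SCI+FIPI mouse 3. Over all genes tested, the number called higher with FIPI was 442 with all mice and 781 without SCI mouse 1. It was 287 and 184 without SCI mouse 2 and SCI mouse 3. Without SCI+FIPI mouse 1, 2 or 3 it was 375, 166 and 419.

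General neuron markers moved the same way as the channel genes. All 16 genes of the list were called lower in SCI than in Sham (median log2 fold change -1.62), as were 22.5% of all genes tested. Of the 16, 8 were called higher in SCI+FIPI than in SCI (median 0.55, range 0.33 to 0.63), as were 2.36% of all genes. Summed CPM of the 16 markers ran from 9660 to 10900 in Sham, 3090 to 4270 in SCI and 4950 to 5830 in SCI+FIPI. Microglia and macrophage markers were called higher after SCI in 9 of 10 genes (423 to 574 CPM summed in Sham, 5920 to 7120 in SCI and 4330 to 5570 in SCI+FIPI) and fibroblast markers in 6 of 6 (350 to 939, 8820 to 11900 and 8150 to 10500). In SCI+FIPI against SCI neither list held a call, where 2.36% of all genes were called higher and 0.695% lower. After SCI, where 22.5% of all genes were called lower and 24.4% higher, oligodendrocyte markers were called lower in 6 of 10 genes, astrocyte markers lower in 2 and higher in 3 of 8, and precursor, vascular and Schwann cell markers higher in 3, 5 and 2 of 8 genes each. With FIPI these 5 lists held 1 call, a vascular gene that was lower, beside the same 2.36 and 0.695% of all genes. At such shares, lists this short would hold few calls or none. The part of these lists in the channel gene values was not tested.

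The proteins that place and tune these channels gave a mixed picture. Of 22 genes that cluster or modulate sodium channels, 11 were called lower and 3 higher after SCI, where 22.5 and 24.4% of all genes were, with a median log2 fold change of -0.49 against 0 over all genes. The largest falls were in Fgf12, Fgf13 and Cntnap2 (-2.03, -1.84 and -1.68), which encode modulators of inactivation at the initial segment and a juxtaparanodal adhesion protein. The larger rises were in Vcan and Gldn (1.65 and 1.27), genes of a matrix and a node protein. Fgf12, Fgf13 and Cntnap2 were also the 3 called higher with FIPI (0.67, 0.65 and 0.59, adjusted p = 0.00307, 0.00303 and 0.00303), and 0 were called lower. Over all genes tested, 2.36% were called higher and 0.695% lower with FIPI.

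Of 25 partners of calcium channels, 19 were called lower and 2 higher after SCI, beside the same 22.5 and 24.4% of all genes (median log2 fold change -1.08). Ryr2, Rims1 and Ryr3, genes of calcium release channels and of an active zone scaffold, fell by 1.86, 1.83 and 1.80 on the log2 scale. The rises were in Rrad and Rem1 (1.77 and 1.63), which encode small GTPases that inhibit calcium channels. Rem2 and Gem belong to that family too and are named here after their values were seen. Rem2 was called lower after SCI (log2 fold change -1.14, adjusted p = 0.000909). Gem had a log2 fold change of 0.47 after SCI (adjusted p = 0.0206) and was the partner gene called lower with FIPI (-0.59, adjusted p = 0.0397). Ryr2, Ryr3, Camk2b and Rims1 were called higher with FIPI (0.61, 0.59, 0.55 and 0.53), where 2.36% of all genes were called higher and 0.695% lower. The 5 symbols listed for the sodium leak channel complex matched 4 genes of the data, and all 4 were called lower after SCI. With FIPI 3 of the 4 were called higher, beside the same 2.36% of all genes. These were Unc80 at 0.69, Nalcn at 0.54 and Unc79 at 0.50 (adjusted p = 0.00166, 0.00474 and 0.00507).

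Promoter windows of 300 bases, from 250 before to 50 after the start, were found in RefSeq (GRCm38.p6) for 30 of the 40 genes, as 41 windows. Cacna1a, Cacna1g, Cacna1h, Cacna2d4, Cacng1, Cacng4, Scn3a and Scn3b were among those with none. The windows of Scn1a (chr2:66440788-66441087, minus strand) and of Scn8a (chr15:100870395-100870694, plus strand, 1 of 2) are shown because these were the 2 sodium genes called lower after SCI and higher with FIPI, with CpG dinucleotides in capitals.
Scn1a: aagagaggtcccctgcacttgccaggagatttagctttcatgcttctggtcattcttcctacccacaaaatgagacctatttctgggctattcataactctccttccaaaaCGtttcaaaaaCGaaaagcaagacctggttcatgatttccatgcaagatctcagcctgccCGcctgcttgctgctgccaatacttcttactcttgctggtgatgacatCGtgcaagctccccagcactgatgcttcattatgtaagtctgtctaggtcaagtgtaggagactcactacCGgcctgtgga
Scn8a: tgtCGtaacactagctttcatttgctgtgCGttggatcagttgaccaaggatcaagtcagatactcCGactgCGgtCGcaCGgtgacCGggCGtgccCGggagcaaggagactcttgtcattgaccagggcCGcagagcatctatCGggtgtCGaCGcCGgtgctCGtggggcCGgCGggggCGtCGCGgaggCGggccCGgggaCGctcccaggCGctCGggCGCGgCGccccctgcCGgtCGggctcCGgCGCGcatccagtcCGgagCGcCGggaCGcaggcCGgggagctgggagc
The Scn1a window held 5 CpG and the Scn8a window 38. The median was 9 CpG over the 41 windows and 7 over all 32851 windows. Searched on both strands, the GC box GGGCGG was in 39.0% of the channel gene windows and 35.7% of all windows, the E box CANNTG in 68.3 and 72.3%, and the TATA box TATAAA in 4.9 and 13.6%. The left part of RE1, the site of the repressor REST, searched as TTCAGCACC, was in 0 channel gene windows and 0.4% of all windows, and the right part, GGACAGC, in 2 channel gene windows (4.9%) and 6.6% of all windows. Such matches describe the letters in the window only.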

How the data were processed

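Poly(A) RNA of 9 mice, 3 in each group, was sequenced by the authors, who trimmed the reads and deposited raw counts for 52550 genes, with no normalization. The submitters' processing notes name GRCm38 and R 4.2.3. The aligner, the counter and the strand setting are not given in the sources used here. GENCODE M21 held 52403 of the gene identifiers and gave symbols, positions and exonic length.

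The deposited counts went into edgeR 4.0.16 under R 4.3.3. Scaling factors came from TMM (0.985 to 1.02), genes were kept by filterByExpr (18699), and a robust quasi-likelihood model with a mean for each group was fitted to all 9 mice (common dispersion 0.00866, biological coefficient of variation 9.3%). The limits, an absolute log2 fold change of 0.5 and an adjusted p of 0.05, follow the methods of the paper, where no test is named. Standard errors were derived from the F statistic. Mice of a group differed by more than sampling noise (chi-square per gene 6.76 to 13.2), so none was counted as a copy.

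The genes of the rule are named, except some that are not reported here and stay in the counts, and up to 3 rises and 3 falls past the limits for each partner list. The genes and lists were chosen with earlier results of these data known. Same-numbered mice are different animals, and their deviations correlated by -0.0726 to 0.108, so they were not paired. Other settings tried were scaling by RLE or upper quartile, dropping the filter or requiring 10 counts in all mice, the replicate block, offsets for GC content and length, each pair of groups alone, DESeq2 1.42.0, limma-voom (limma 3.58.1), other limits, and each mouse left out. Python 3.11.15 with Biopython 1.88, scipy 1.17.1 and matplotlib 3.10.9 served for sequences, shares and figures. Coding stretches came from each gene's longest open reading frame. Counting precision is low for the 7 channel genes under 25 counts in every mouse.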

Additional observations from a re-analysis of the deposited data

How the results depend on the processing

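The number of channel genes called lower in SCI than in Sham was 26 and stayed within 1.5 times of that under each alternative tried. It was 18 at a log2 fold change of 1 or more in size. That of SCI+FIPI against Sham was 22, with 10 at a log2 fold change of 1 or more in size. Over all genes tested, 4209 were called lower in SCI than in Sham and 3171 in SCI+FIPI than in Sham. At a log2 fold change of 1 or more in size these were 2210 and 1000. The number of channel genes called higher with FIPI was 6. It was 16 with no limit on the fold change, 0 at a log2 fold change of at least 1, and 3 to 12 when each mouse was left out in turn. Over all genes tested the number was 442, and in the same settings 1130, 41 and 166 to 781. With the replicate block 6 channel genes were higher with FIPI and 26 were lower in SCI than in Sham, so the block changed neither count. Higher calls were 1 between SCI and Sham, 0 with at least 10 counts in every mouse or with only the 2 groups compared, 2 with no limit on the fold change or with the replicate block and offsets for GC content and length together, and 0 to 2 without 1 mouse. Between SCI+FIPI and Sham they were 1, but 2 with no filter, with the replicate block, with the offsets, with both or with no limit on the fold change, 0 with at least 10 counts in every mouse or only the 2 groups compared, and 1 to 2 without 1 mouse. Over all genes tested, 4571 were called higher in SCI than in Sham and 3957 in SCI+FIPI than in Sham in the main fit. The cause of the differences between settings was not tested.

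Some log2 fold changes turned sign in some settings, all without a call. In the main fit they were near 0, except Cacna1s in SCI+FIPI minus Sham (0.45) and Cacna1f in SCI+FIPI minus SCI (0.16). These 2 genes had at most 14 and 19 counts in any mouse. With the offsets Cacna1d was 0.10 in SCI minus Sham, -0.01 in SCI+FIPI minus SCI and 0.09 in SCI+FIPI minus Sham, the same with the block added, and Cacng8 was -0.08 in SCI+FIPI minus SCI, or -0.07 with the block. Between SCI+FIPI and SCI, other settings gave Cacna1f -0.01 (limma-voom), Cacna2d4 -0.002 (no filter) and Cacnb3 0.01 (upper-quartile factors). When 1 mouse was left out, the values of SCI+FIPI minus SCI ran from -0.03 to 0.06 for Cacna1d, -0.25 to 0.56 for Cacna1f, -0.07 to 0.12 for Cacna2d4, -0.09 to 0.05 for Cacnb3, -0.02 to 0.11 for Cacng4, -0.04 to 0.15 for Cacng5, -0.08 to 0.14 for Cacng8 and -0.35 to 0.23 for Scn4a. Cacna2d4 ran from -0.19 to 0.08 in SCI minus Sham and in SCI+FIPI minus Sham, and Cacna1s from -0.02 to 1.28 in SCI+FIPI minus Sham.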
